A study of Mus musculus with 8 samples.

Results

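A group of 10 genes of the hormone-responsive luminal epithelium was followed in cell suspensions of whole mammary glands, prepared from parous mice and from virgins of the same age: the receptors Esr1 and Pgr, their partners Foxa1 and Cited1, the secreted signals Wnt4, Tnfsf11 and Calca, the surface protein Prom1, the estrogen-responsive gene Greb1 and the transcription factor Tbx3. Members were the probe sets whose only gene symbol in the array annotation is one of these names, which gave 10 probe sets for 9 of the 10 genes. The array has 34760 probe sets, and those that name 1 gene give 19935 gene symbols. Wnt4 had a pair of probe sets (10509267 and 10509273) and each of the other 8 genes had 1, and Calca was not analysed here. Each of 8 Affymetrix arrays (Mouse Gene ST) held RNA of 1 pool of 5 mice of the strain FVB/NHanHsd, taken from the fourth mammary glands, and 4 of the pools were parous and 4 virgin. Mating at the age of 42 days and 21 days of nursing made up the parous history. The sample labels give 28 days for the involution that followed, whereas the study's methods give a longer time after weaning, and virgin mice were kept under the same conditions without mating. Lymph nodes, adipocytes and red blood cells were removed and fibroblasts were depleted, luminal, basal, immune, endothelial and remaining stromal cells were not separated, and the estrous stage of each pool was not given in the sources used here.

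In the adult mammary gland only a part of the luminal cells carries the estrogen receptor and the progesterone receptor. These cells read the circulating hormones and pass the signal on to neighbouring cells through secreted factors, of which Wnt4 and RANKL (the product of Tnfsf11) act downstream of the progesterone receptor. Estrogen acts through ESR1 together with the pioneer factor FOXA1 to switch on genes such as Pgr, so that the response to progesterone depends on earlier exposure to estrogen.

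Values were log2 RMA values, in which the background is corrected, the arrays are quantile normalized and the probes are summarized to 1 value per probe set, so that a difference of 1 is a doubling of the summarized signal. A probe set was called higher or lower in parous suspensions if it passed an adjusted p under 0.05 in limma, a change of over 1.5-fold on the linear scale and a mean log2 value over 2. The question behind the comparison was whether a past pregnancy is followed by lower levels of the hormone receptors and of the signals that depend on them. Of the 10 probe sets, 9 had a log2 fold change below 0, against 49.6% of all probe sets, and 2 were called lower, both of Wnt4, against 0.158% of all probe sets. None was called higher, against 0.239% of all probe sets. The 8 genes other than Wnt4 were not called. The 4 parous arrays lay below the 4 virgin arrays on 5 of the 10 probe sets, those of Wnt4, Foxa1, Cited1 and Tnfsf11, against 4.06% of all probe sets, and none lay above them, against 3.54%. At a limma p under 0.05 before adjustment, 6 of the 10 were lower and none higher, against 6.14% and 5.26% of all probe sets. In whole suspensions, fewer cells of a type and less RNA per cell cannot be told apart.

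**Figure D1:**
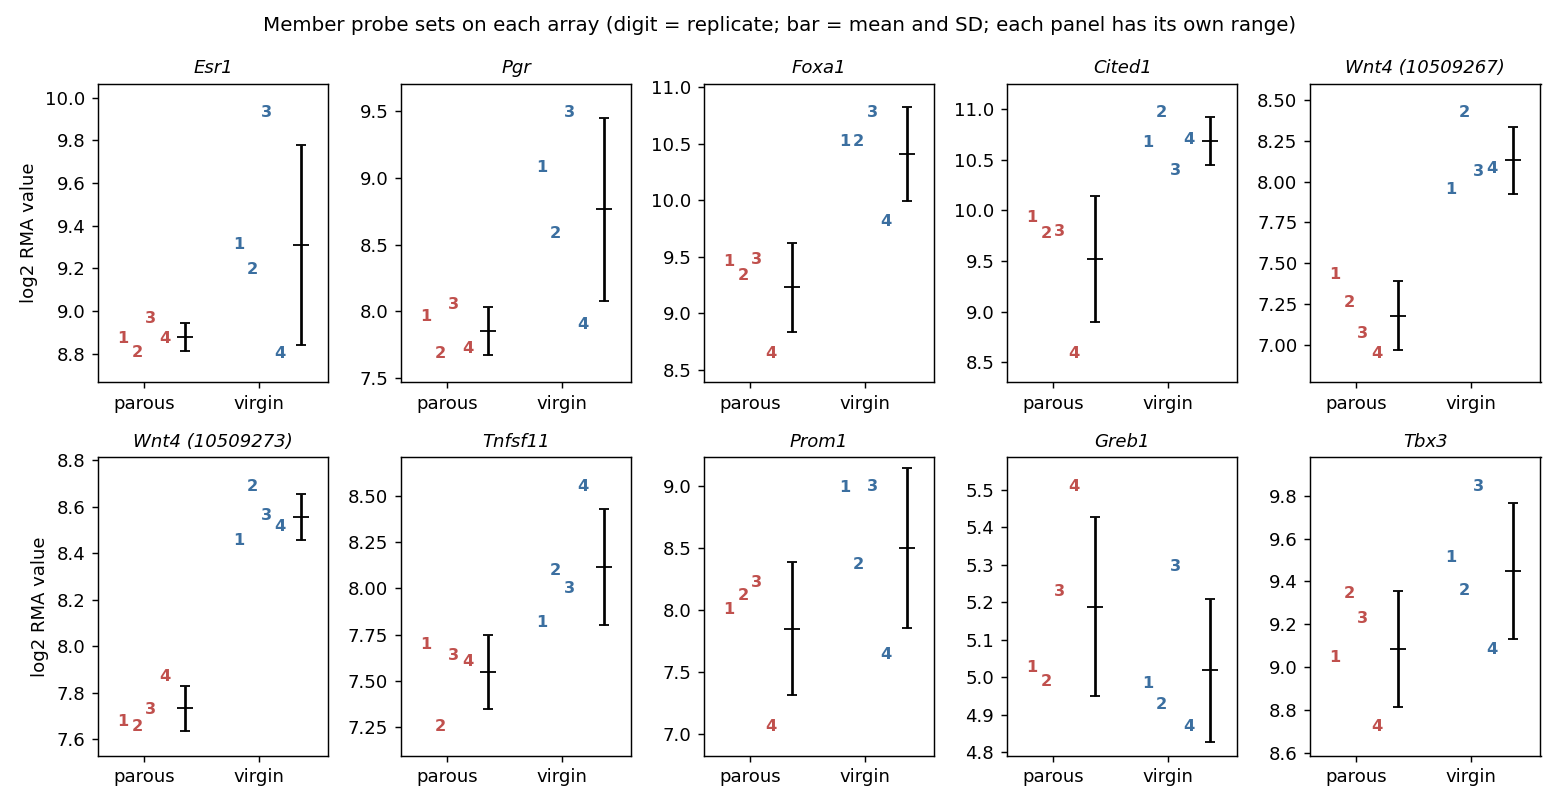
Log2 RMA values of the 10 probe sets on each array, parous left of virgin, with each digit a replicate number and the bar beside it the mean and SD of 4 arrays; each panel has its own vertical range. The parous and virgin arrays do not overlap on both Wnt4 probe sets, Foxa1, Cited1 and Tnfsf11, and virgin replicates are widely spread on Esr1, Pgr and Prom1.

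Some array-wide values stood beside these results. Pan-luminal markers had centred mean log2 values of -0.18 to -0.034 in the parous arrays and 0.012 to 0.21 in the virgin arrays, and 10 of the 13 measured had a log2 fold change below 0 (none called in limma, and with p under 0.05 before adjustment in 8 lower and 2 higher). Krt8 and Krt18, which define luminal cells, had log2 means of 13.11 and 13.02 in parous suspensions, against 13.28 and 13.13 in virgin suspensions. Both lay near the highest values of the arrays (13.68 to 13.76), and whether this limits their differences was not tested. The adipocyte gene Adipoq had means of 4.58 in parous and 4.62 in virgin suspensions, below the medians of all arrays (6.29 to 6.43). Virgin replicates 2 and 4 stood apart by 24 proliferation genes, with centred means of 1.12 and 1.60, whereas the parous arrays had -0.79 to -0.43 and virgin replicates 1 and 3 had -0.21 and -0.23. The part of these differences in the results was not tested, and values without virgin replicates 2 and 4 are given where they differ by over 1.5 times, turn or change a call.

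Promoter sequence is shown for the 4 genes whose groups did not overlap, so that the response elements of the receptors can be looked for in them. The sequences are the 250 bases before an annotated start, from RefSeq on GRCm38.p6, and for Cited1, which has 3 annotated starts, the one with a match is shown. Capitals mark a match to 1 of 5 motifs searched on both strands: the estrogen response element GGTCANNNTGACC, its half-site AGGTCA, the progesterone response element GNACANNNTGTNC, its half-site TGTTCT, and the forkhead core TGTTTAC. A full element and its half-site can overlap in the same letters.
Wnt4 (chr4:137277385-137277634, plus strand): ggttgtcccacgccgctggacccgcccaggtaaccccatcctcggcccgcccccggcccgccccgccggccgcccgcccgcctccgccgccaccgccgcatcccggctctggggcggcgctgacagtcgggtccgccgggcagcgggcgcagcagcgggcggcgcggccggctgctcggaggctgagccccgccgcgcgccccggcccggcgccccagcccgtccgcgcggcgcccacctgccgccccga
Foxa1 (chr12:57546112-57546361, minus strand): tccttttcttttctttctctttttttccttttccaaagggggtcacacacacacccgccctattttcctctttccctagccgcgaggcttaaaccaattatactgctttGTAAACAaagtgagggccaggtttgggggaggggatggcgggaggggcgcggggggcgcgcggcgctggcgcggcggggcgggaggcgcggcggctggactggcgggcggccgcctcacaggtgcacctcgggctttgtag
Cited1 (chrX:102250777-102251026, minus strand): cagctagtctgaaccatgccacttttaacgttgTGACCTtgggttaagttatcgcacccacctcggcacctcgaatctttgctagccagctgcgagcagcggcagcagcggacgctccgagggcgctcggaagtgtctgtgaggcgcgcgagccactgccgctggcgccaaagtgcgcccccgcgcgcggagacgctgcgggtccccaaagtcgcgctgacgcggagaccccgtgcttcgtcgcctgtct
Tnfsf11 (chr14:78308044-78308293, minus strand): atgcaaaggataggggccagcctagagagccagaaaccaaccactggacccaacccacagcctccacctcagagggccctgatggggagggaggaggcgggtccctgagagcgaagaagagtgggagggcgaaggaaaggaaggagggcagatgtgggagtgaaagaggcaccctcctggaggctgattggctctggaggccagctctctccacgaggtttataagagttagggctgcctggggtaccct
The windows of Wnt4 and Tnfsf11 held no match. That of Foxa1 held 1 forkhead core on the other strand, which begins 141 bases before the start and reads GTAAACA as printed, and 3.17% of all 32851 windows of this length held one. That of Cited1 held 1 estrogen half-site on the other strand, which begins 217 bases before the start and reads TGACCT, a motif held by 14% of all windows. Of the 13 windows of 8 genes, the others with a match were 1 of Greb1 (estrogen half-site) and 1 of Prom1 (progesterone half-site, in 16.1% of all windows), and Esr1 and Pgr had none. Neither full element was found in them, as in all but 0.064% and 0.387% of windows. A match is a run of letters and not a measured site.

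Esr1 encodes the estrogen receptor alpha. Its log2 values were 8.87, 8.81, 8.96 and 8.87 in parous replicates 1 to 4, against 9.31, 9.20, 9.93 and 8.80 in virgin replicates 1 to 4. The parous arrays were tightly grouped and the virgin arrays were not, with virgin replicate 4 just below the lowest parous array and the other 3 virgin arrays above them. The log2 fold change was -0.43 (standard error 0.21, 95% confidence interval -0.90 to 0.04, adjusted p = 0.48 in limma), and the exact permutation test gave p = 0.14 (2-sided, n = 4 arrays per group). With 1 array left out it ranged from -0.60 to -0.22, the last without virgin replicate 3.

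Pgr, the progesterone receptor gene and a target of ESR1, had log2 values of 7.96, 7.69, 8.05 and 7.72 in parous replicates 1 to 4, against 9.08, 8.58, 9.49 and 7.90 in virgin replicates 1 to 4. Here virgin replicate 4 lay within the range of the parous arrays and, as for Esr1, the other 3 virgin arrays lay above it. Parous minus virgin, the log2 difference was -0.91 (standard error 0.30, 95% confidence interval -1.60 to -0.22, adjusted p = 0.31 in limma; exact permutation test, 2-sided, p = 0.086). With 1 array left out it ranged from -1.20 to -0.67 and was not called. Without virgin replicates 2 and 4 it was -1.43 and was called (adjusted p = 0.035 in limma). Those arrays had the lowest virgin values of Pgr, and leaving them out was chosen after the data were seen. The larger difference and the call follow from that choice and are no separate evidence.

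Foxa1 encodes the pioneer factor that opens chromatin for the estrogen receptor. Its log2 values were 9.46, 9.34, 9.48 and 8.65 in parous replicates 1 to 4, against 10.52, 10.52, 10.78 and 9.81 in virgin replicates 1 to 4. The groups did not overlap, and replicate 4 was the lowest array of each. The log2 fold change of -1.18 was the lowest of the 10 probe sets but missed the adjusted threshold (2.26-fold lower, standard error 0.25, 95% confidence interval -1.74 to -0.61, adjusted p = 0.12 in limma). The exact permutation test gave p = 0.029 (2-sided), the smallest that 4 arrays against 4 allow. The difference ranged from -1.37 to -0.98 with 1 array left out (adjusted p of 0.053 to 0.34 in limma).

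Cited1, a transcriptional coactivator that binds the estrogen receptor in mouse mammary cells, had log2 values of 9.93, 9.77, 9.79 and 8.59 in parous replicates 1 to 4, against 10.67, 10.96, 10.39 and 10.70 in virgin replicates 1 to 4. Every parous array was below every virgin array, and parous replicate 4 was far below the other 3. The log2 fold change was -1.16 (2.23-fold lower, standard error 0.29, 95% confidence interval -1.81 to -0.51, adjusted p = 0.17 in limma; exact permutation test, 2-sided, p = 0.029), or -0.85 without parous replicate 4 (adjusted p = 0.098 in limma).

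Wnt4, the secreted Wnt ligand made by progesterone receptor-positive cells, was the member called lower. On probe set 10509273 its log2 values were 7.68, 7.65, 7.73 and 7.87 in parous replicates 1 to 4, against 8.46, 8.69, 8.56 and 8.52 in virgin replicates 1 to 4. On probe set 10509267 they were 7.43, 7.26, 7.07 and 6.95 in parous replicates 1 to 4, against 7.95, 8.42, 8.06 and 8.08 in virgin replicates 1 to 4. The virgin arrays lay close together on 10509273, replicates 2 and 4 included, whereas on 10509267 virgin replicate 2 stood above the other 3. The gap between the groups was 0.58 wide on 10509273 and 0.52 on 10509267. The log2 fold changes were -0.82 (standard error 0.083, adjusted p = 0.0070 in limma) and -0.95 (standard error 0.14, adjusted p = 0.029 in limma). Probe set 10509273 was called whichever array was left out (adjusted p of 0.014 to 0.044), whereas 10509267 was called only without parous replicate 1 (adjusted p = 0.047, and 0.055 to 0.13 without any 1 of the others). By the methods' t-test the adjusted p was 0.052 for 10509273 and 0.13 for 10509267, so that neither was called. Centring each array on its pan-luminal markers added about the same amount to every log2 fold change, with the median of all probe sets at 0.21, and gave -0.62 and -0.75, with both probe sets called (adjusted p = 0.047 and 0.032 in limma).

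Tnfsf11, which encodes RANKL, the ligand that drives proliferation of neighbouring epithelial cells in response to progesterone, had log2 values of 7.70, 7.25, 7.64 and 7.60 in parous replicates 1 to 4, against 7.82, 8.10, 8.00 and 8.55 in virgin replicates 1 to 4. The groups were separated by only 0.12, between parous replicate 1 and virgin replicate 1. The highest value was that of virgin replicate 4, where the proliferation genes were also highest. Parous minus virgin, the difference was -0.57 on the log2 scale (standard error 0.17, 95% confidence interval -0.95 to -0.19, adjusted p = 0.25 in limma; exact permutation test, 2-sided, p = 0.029), or -0.36 without virgin replicates 2 and 4.

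Prom1, the gene of the surface protein CD133 that marks hormone receptor-positive luminal cells of the mouse, had log2 values of 8.01, 8.12, 8.22 and 7.06 in parous replicates 1 to 4, against 8.99, 8.37, 9.0 and 7.65 in virgin replicates 1 to 4. Replicate 4 was lowest in each group and the groups overlapped. The log2 fold change was -0.65 (95% confidence interval -1.46 to 0.16, adjusted p = 0.55 in limma; exact permutation test, 2-sided, p = 0.20), or -0.39 without parous replicate 4. Tbx3, a T-box factor needed for mammary development, had log2 values of 9.05, 9.34, 9.23 and 8.72 in parous replicates 1 to 4, against 9.51, 9.36, 9.84 and 9.08 in virgin replicates 1 to 4. Again replicate 4 was lowest in each group, and the log2 fold change was -0.37 (95% confidence interval -0.79 to 0.06, adjusted p = 0.51 in limma; exact permutation test, 2-sided, p = 0.11), or -0.23 without virgin replicate 3. Greb1, an estrogen-responsive coactivator of the estrogen receptor, was dim, with log2 values of 5.03, 4.99, 5.23 and 5.51 in parous replicates 1 to 4, against 4.98, 4.93, 5.30 and 4.87 in virgin replicates 1 to 4. Each of the 8 values was lower than the median of its array, the groups overlapped, and the log2 fold change was 0.17 (95% confidence interval -0.15 to 0.49, adjusted p = 0.72 in limma; exact permutation test, 2-sided, p = 0.29).

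**Figure D2:**
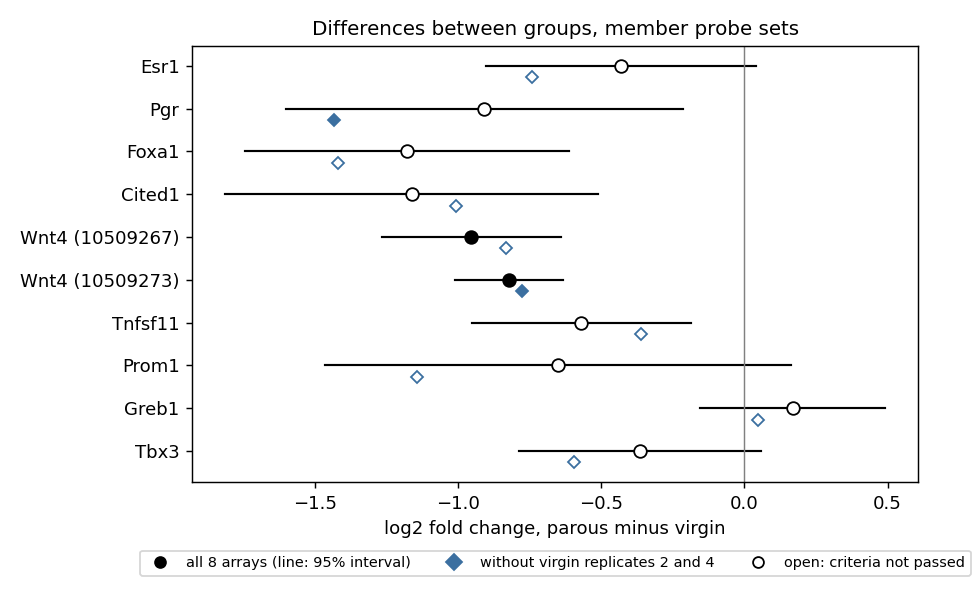
Log2 fold changes, parous minus virgin, of the 10 probe sets, with circles and 95% confidence intervals for all 8 arrays and diamonds for the fit without virgin replicates 2 and 4; filled symbols passed the criteria. Both Wnt4 probe sets passed with all arrays, at -0.82 and -0.95, and Pgr passed without virgin replicates 2 and 4, at -1.43. Leaving out these arrays was chosen after the data were seen and removes the lowest virgin values of Pgr.

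Virgin replicate 4 was the lowest or the highest virgin array on most members. Of the 9 genes, 6 had their lowest virgin value in replicate 4 (Esr1, Pgr, Foxa1, Prom1, Greb1 and Tbx3), while Tnfsf11 had its highest there. On Esr1, Pgr, Prom1 and Tbx3, virgin replicate 4 was the only virgin array that was not above all parous arrays. Leaving out virgin replicates 2 and 4 was chosen after the data were seen, and it separates the groups on these genes by removing that array. Without virgin replicates 2 and 4, the parous arrays lay below the remaining virgin arrays on 9 of the 10 probe sets, all but that of Greb1, against 7.65% of all probe sets, and none lay above them, against 8.71%. The log2 fold changes in that fit were -0.74 for Esr1, -1.42 for Foxa1, -1.01 for Cited1, -1.14 for Prom1 and -0.59 for Tbx3, none of which was called in limma (adjusted p = 0.26, 0.13, 0.59, 0.40 and 0.49), and 0.05 for the dim Greb1. Wnt4 was then called on 10509273 (-0.77, adjusted p = 0.047) but not on 10509267 (-0.83, adjusted p = 0.13).

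**Figure D3:**
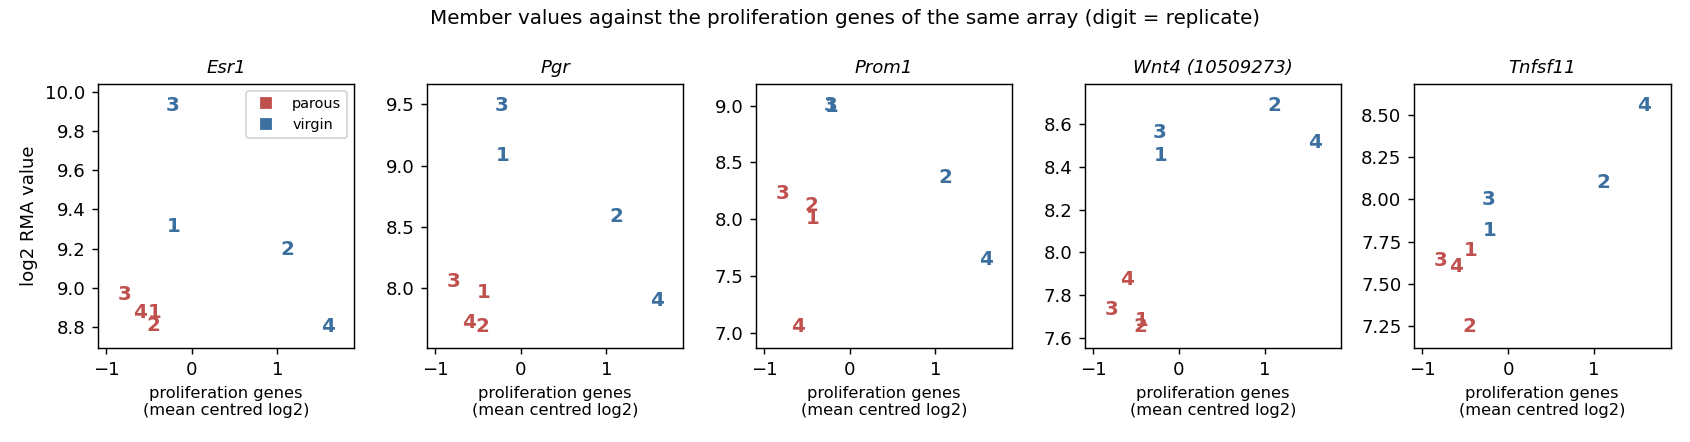
Log2 RMA values of Esr1, Pgr, Prom1, Wnt4 (10509273) and Tnfsf11 on the vertical axes against the mean centred log2 value of 24 proliferation genes on the same array, with digits for replicate numbers and colours for parous and virgin. Virgin replicates 2 and 4 lie at 1.12 and 1.60 on the horizontal axis, and Pgr is lower there than in virgin replicates 1 and 3 while Tnfsf11 is highest in virgin replicate 4.

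Whether a member changed by more than the receptor itself was examined by subtracting Esr1 from each of the 8 other genes on the same array, so that any factor shared by the probe sets of an array cancels. Pgr minus Esr1 averaged -1.02 in parous and -0.55 in virgin suspensions, a difference of -0.48 on the log2 scale (standard error 0.16). Foxa1 minus Esr1 averaged 0.35 in parous and 1.10 in virgin suspensions (difference -0.74, standard error 0.22). For both genes the parous arrays lay below the virgin arrays (exact permutation test, 2-sided, p = 0.029, or 0.076 after Benjamini-Hochberg adjustment over the 8 genes), against 0.104% of all other probe sets after the same subtraction. For Pgr the groups almost touched, with a highest parous value of -0.912 and a lowest virgin value of -0.905. For Foxa1 these values were 0.59 and 0.85. Subtracting Esr1, which had the lower mean in parous suspensions, moves the difference of every other probe set upward, so that few lie lower. Greb1 minus Esr1 was -3.69 in parous and -4.29 in virgin suspensions with no overlap and the same p in the exact permutation test, against 13.5% of other probe sets that lay higher in this way. Most of its difference of 0.60 is the log2 fold change of Esr1 with the sign turned, since the dim Greb1 signal itself had 0.17. An adjusted p under 0.05 would have needed the smallest p in 5 of the 8 genes, and none passed. Wnt4 minus Esr1 was -1.20, -1.15, -1.23 and -1.0 in parous replicates 1 to 4 and -0.86, -0.51, -1.37 and -0.29 in virgin replicates 1 to 4. These groups overlapped, and the difference of -0.39 had a standard error of 0.24 (exact permutation test, 2-sided, p = 0.20), and the difference was -0.03 without virgin replicates 2 and 4. It was -0.59 without virgin replicate 3, where the groups did not overlap (exact permutation p = 0.057, the smallest that 4 arrays against 3 allow), and -0.52 on probe set 10509267 with all arrays. Hence Wnt4 was not shown to differ by another amount than Esr1. The differences were -0.73 for Cited1, -0.14 for Tnfsf11, -0.22 for Prom1 and 0.07 for Tbx3, with exact permutation p of 0.17, 0.77, 0.63 and 0.77.

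Over the 8 pools Esr1 and Pgr ran together. Pearson's r was 0.95 and Spearman's rho 0.93 (exact permutation tests over pairings, p = 0.00025 and 0.0022, or 0.0089 and 0.027 after adjustment over 36 pairs of genes for r and for rho), and r was 0.94 without virgin replicates 1 and 3, the arrays farthest from the median of Esr1. Prom1 and Tbx3 had an r of 0.94 and a rho of 0.95 (exact permutation p = 0.00087 and 0.0011, adjusted 0.013 and 0.027), with r at 0.87 without parous replicate 4 and virgin replicate 3. A difference between the groups alone gives a correlation over all 8 arrays, and for the 6 pairs in which neither gene overlapped between groups no pooled r is given. Deviations from the group means were therefore set beside the pooled values. For Esr1 and Pgr they had an r of 0.94 (rho 0.98), for Prom1 and Tbx3 an r of 0.91 (rho 0.90), for Foxa1 and Prom1 an r of 0.94 (rho 0.74) and for Foxa1 and Tbx3 an r of 0.87 (rho 0.69). Without replicate 4 of both groups r was 0.44 for Foxa1 and Prom1 and 0.55 for Foxa1 and Tbx3, so that these values rest on those arrays.

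For the deviations, 8 of the 36 pairs had an exact permutation p under 0.05 for r, with orders exchanged within groups only, and none of the 36 passed after adjustment (smallest adjusted p = 0.13 for r). For Esr1 and Pgr this exact permutation p was 0.026 and r was 0.73 without virgin replicates 3 and 4, and for Prom1 and Tbx3 it was 0.0052 and r was 0.71 without parous replicate 4 and virgin replicate 4. For the paracrine signals the values were lower: Wnt4 had an r of 0.07 with Esr1 and -0.10 with Pgr (rho -0.05 and -0.14, exact permutation p = 0.92 and 0.87), and Tnfsf11 had an r of -0.50 with Esr1, -0.60 with Pgr and -0.69 with Prom1 (rho -0.31, -0.43 and -0.64, exact permutation p = 0.38, 0.26 and 0.13). The r of Tnfsf11 was 0.35 with Esr1 and -0.04 with Pgr without virgin replicates 3 and 4, and -0.30 with Prom1 without virgin replicates 1 and 4, so that the values rest on those arrays. Wnt4 without virgin replicates 3 and 4 had -0.28 with Esr1 and -0.61 with Pgr. These values of Wnt4 are those of probe set 10509273, whose SD was only 0.097 in parous and 0.098 in virgin arrays. Parous replicate 4 was the highest parous array on it (7.87) but the lowest on 10509267 (6.95), which was not used for correlations. With so little spread, and different orders on its probe sets, the r of Wnt4 cannot show whether it follows the receptors within groups. Thus the pools with less Pgr than the rest of their group were not shown to be those with less Wnt4 or Tnfsf11.

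**Figure D4:**
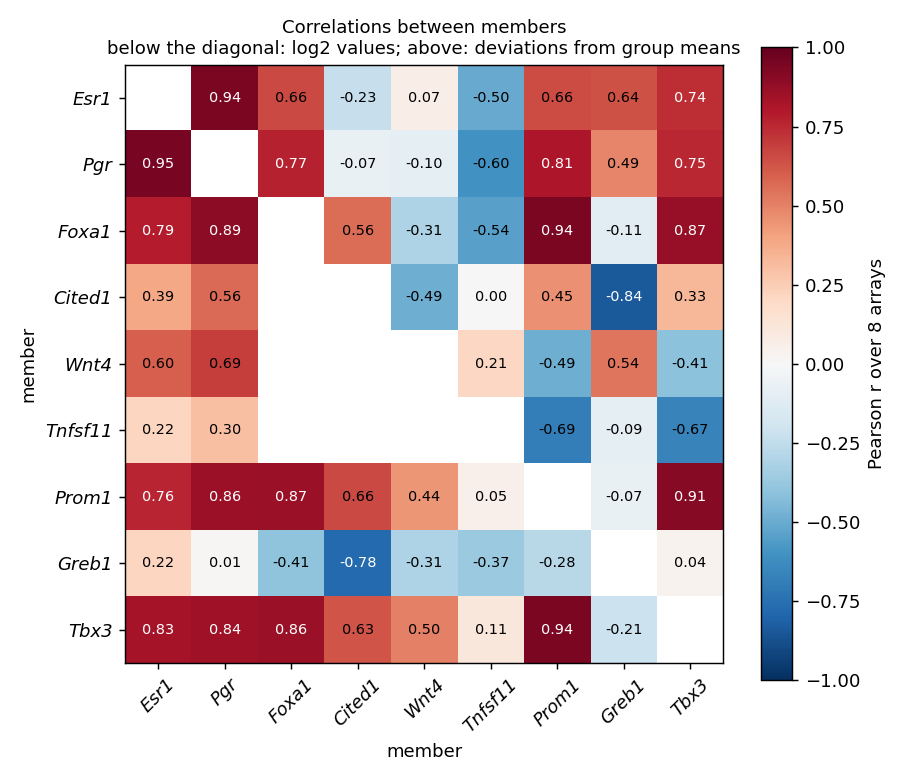
Pearson correlations between the 9 genes over 8 arrays, with log2 values below the diagonal and deviations from the group means above it, Wnt4 on probe set 10509273; blank cells below the diagonal are the 6 pairs in which neither gene overlapped between groups. Esr1 and Pgr reach 0.95 below and 0.94 above the diagonal, whereas Wnt4 with Pgr has -0.10 and Tnfsf11 with Pgr -0.60 above it.

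Other genes of the pathway were taken from lists. Of 18 steroid receptors and coregulators measured, none was called (p under 0.05 before adjustment in 1 that was higher and 2 that were lower), and the median log2 fold change was 0.01, against 0.0016 over all probe sets. The largest differences outside the members were those of Gper1, a membrane receptor for estrogen (0.55, adjusted p = 0.41 in limma), and Fkbp4, a cochaperone of steroid receptors (-0.27, adjusted p = 0.60 in limma). Of 23 estrogen receptor cofactors and target genes none was called (before adjustment, p under 0.05 in 2 that were higher and in the lower Foxa1 and Pgr), with a median of 0.05. Stc2, a secreted glycoprotein, had -0.50 (adjusted p = 0.75 in limma) and the transcription factor Myb -0.50 (adjusted p = 0.51 in limma). Gper1 had 0.27, Fkbp4 0.02 and Stc2 -1.31 without virgin replicates 2 and 4 (adjusted p = 0.88, 0.99 and 0.050 in limma), and the medians of the lists were -0.05 and 0.01. Pgr belongs to both lists and was their 1 call without virgin replicates 2 and 4.

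Of 19 progesterone targets and paracrine partners 1 was called lower, Wnt4, and none higher (before adjustment, p under 0.05 in 2 that were higher and 5 that were lower, among them the members Wnt4, Tnfsf11 and Cited1), with a median of -0.04, or -0.02 without virgin replicates 2 and 4. Adamts18, a secreted protease described downstream of WNT4 in mouse mammary myoepithelium, had log2 values of 6.14, 6.74, 6.77 and 6.04 in parous replicates 1 to 4, against 7.41, 8.63, 7.38 and 8.99 in virgin replicates 1 to 4. The groups did not overlap and virgin replicates 2 and 4 were highest. Its log2 fold change was -1.68 (standard error 0.39, adjusted p = 0.15 in limma). It was -0.98 without virgin replicates 2 and 4 (adjusted p = 0.30 in limma). Rspo1, a Wnt agonist, had -0.82 (adjusted p = 0.70 in limma), and its direction turned to 0.46 without those arrays (adjusted p = 0.83 in limma). The receptor of RANKL, Tnfrsf11a, and its decoy, Tnfrsf11b, chosen after their values were seen, had 0.44 and -0.39 (adjusted p = 0.32 and 0.33 in limma), or 0.18 and -0.18 without virgin replicates 2 and 4. A list of other hormone-sensing luminal markers left out Esr1, Pgr and Foxa1. It included the members Cited1, Prom1 and Tbx3 and the pan-luminal Krt8 and Krt18. Of its 14 genes measured none was called (before adjustment, p under 0.05 in 2 that were higher and 3 that were lower), with a median of -0.14.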

How the data were processed

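For each pool, total RNA was amplified (Ambion WT Expression) and hybridized to 1 array. The deposited log2 values were made by the authors with rma() of the affy package, with no version given in the labels; they are background-corrected, quantile normalized and summarized per probe set, and no detection calls were used here. Arrays have no read depth, and their number limits the precision. Probe sets took their symbols from the array annotation, updated through gene identifiers (21553 of the 21640 that name 1 gene). Groups and replicate numbers came from the sample titles, and arrays were treated as separate pools.

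Parous and virgin arrays were compared in R 4.3.3 with limma 3.58.1 (lmFit and eBayes, no covariate, 2-sided), p-values were adjusted by Benjamini-Hochberg across the 34760 probe sets, and the criteria were those of the methods, in which a mean log2 value over 2 is an average linear expression over 4. Exact permutation tests for single genes and differences from Esr1 were made with scipy 1.17.1. Those for correlations went through all orders of the arrays, or all orders within groups for deviations, in separate code. Where a gene had several probe sets, correlations, differences from Esr1 and gene lists used that with the highest mean. Centred list values are means of genes after subtraction of each gene's mean over the 8 arrays. Named genes were all members, in each list up to 4 others that were called or else the 2 with the largest change, and the 3 genes most like Esr1, Pgr and Wnt4. Alternatives were the replicate block, leaving out arrays, rescaling (again by quantiles, on the median or on pan-luminal markers), other variance models, an unpaired t-test, other filters and other fold changes. The methods name the t-test for comparisons in general and limma for the arrays. The procedure was tested on simulated data. The members and lists were chosen with earlier results of these data known.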

Additional observations from a re-analysis of the deposited data

Results flagged for a closer look

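Among the 20 groups of 4 arrays examined (10 probe sets, parous and virgin), 2 held an array far from the others by Dixon's test, and both were parous replicate 4. Foxa1 was at 8.65 there, a gap of 0.83 of the range of the parous arrays, and Cited1 was at 8.59, a gap of 0.88 of the range. Chance flags about 1 in 20 groups. Prom1 and Tbx3 were also lowest among the parous arrays on it, as was Wnt4 on 10509267, at 6.95, while Wnt4 on 10509273 was highest, at 7.87, and its fibroblast markers had the highest centred mean, 0.53, against -0.16 to 0.17 in the other parous arrays. Without this array the log2 fold changes were -0.98 for Foxa1 and -0.85 for Cited1 (adjusted p = 0.23 and 0.098 in limma).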

How the results depend on the processing

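Each of the 10 probe sets kept its direction in every alternative in which it was tested (Greb1 was not tested without dim probe sets). The count of 2 called was 1 with the replicate block, 0 with the unpaired t-test and 0 at a fold change over 2, and ranged from 1 to 2 with 1 array left out. It was 2 without virgin replicates 2 and 4, where the pair was Pgr and Wnt4 on 10509273. The study describes experiments with a parous and a virgin pool each, but no label ties the replicate numbers to them, and the numbers did not meet the rule for pairs: deviations of same-numbered arrays correlated at -0.057 to 0.31, over 0.1 in 3 of 4 pairs, and 2 of the 4 parous arrays correlated best with their own number. With the replicate block Foxa1 was called (adjusted p = 0.025) and Wnt4 was not (0.058 and 0.098). By the unpaired t-test Wnt4 had adjusted p of 0.052 and 0.13. Probe sets that did not overlap between groups numbered 5, and 9 without virgin replicates 2 and 4, an alternative chosen after seeing the data. Of 36 gene pairs, 11 had an adjusted p under 0.05 for Pearson's r over all arrays, 2 of them among pairs in which neither gene overlapped between groups. The count was 0 as deviations from group means and 0 without the 2 arrays farthest from the median, where fewer arrays were tested. In both of these settings the possible orders are too few for a single pair to pass alone, so that the counts cannot be compared. Over the whole array 55 probe sets were called lower and 83 higher, 24 and 25 with the replicate block, 5 and 6 by the t-test, and 39 and 232 after centring on pan-luminal markers; with 1 array left out the counts were 15 to 69 and 27 to 110. Arrays per group limit what can be called, and Greb1 is too dim to read a small difference.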

Other observations

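Of 12 luminal progenitor markers none was called in limma, but p before adjustment was under 0.05 in 8 that were higher and in none that was lower, the median log2 fold change was 0.34, and their centred means were 0.16 to 0.20 in the parous arrays and -0.48 to 0.025 in the virgin arrays. Cxcl1 had a log2 fold change of 0.82 and Ltf 0.99 (adjusted p = 0.12 and 0.47 in limma), and Ltf 0.29 without virgin replicates 2 and 4. The study counts Ltf as a differentiation gene. Below 0 were 2 of the 12, Kit (-0.12, or -0.29 without virgin replicates 2 and 4) and Itga2 (-0.20). Of 16 basal and myoepithelial markers none was called higher and 2 were called lower: the keratin Krt17 (-1.18, adjusted p = 0.017 in limma) and Igfbp2, which binds insulin-like growth factors (-1.85, adjusted p = 0.032 in limma). Before adjustment, p was under 0.05 in 6 that were lower and in none that was higher. A log2 fold change below 0 was found in 13 of the 16, and the median was -0.27. Without virgin replicates 2 and 4 Igfbp2 was called and Krt17 was not. Of 13 pan-luminal markers Krt7 had -0.88 and Cldn7 -0.60 (adjusted p = 0.073 and 0.22 in limma). Krt19, chosen after its values were seen, had an adjusted p under 0.05 but missed the fold change criterion (-0.47, adjusted p = 0.044 in limma). Tspan8 and Fxyd2, of the list of other hormone-sensing markers, had 0.89 and 0.63 (adjusted p = 0.41 and 0.53 in limma), or 0.25 and 0.12 without virgin replicates 2 and 4. None of the immune, fibroblast, endothelial, adipocyte, red blood cell or proliferation markers was called in limma (16, 11, 10, 7, 2 and 24 measured), with medians of 0.18, 0.31, 0.20, 0.08, 0.14 and -1.25. Without virgin replicates 2 and 4 the medians were -0.39, 0.18, -0.06, -0.01, 0.17 and -0.41 in the same order, so that those of the immune, endothelial and adipocyte markers turned. Before adjustment, p was under 0.05 for 2 immune and 19 proliferation markers that were lower and for 1 immune and 5 fibroblast markers that were higher. The largest differences in these lists were those of Itgax (-0.87) and Cd79a (0.75), Dpt (0.93) and Pdgfra (0.92), Tek (0.42) and Vwf (0.35), Lep (0.20) and Pparg (0.20), Slc4a1 (0.20) and Alas2 (0.09), and Bub1 (-2.04) and Ccna2 (-1.77). In the fit without virgin replicates 2 and 4 these were -0.53 for Itgax, -0.49 for Cd79a, 0.59 for Dpt, 0.72 for Pdgfra, 0.09 for Tek, -0.03 for Vwf, -0.02 for Lep, 0.02 for Pparg, 0.14 for Slc4a1, 0.20 for Alas2, -0.63 for Bub1 and -0.70 for Ccna2.

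The genes whose deviations from the group means were most like those of Esr1 over the 8 arrays were Cnn1, a smooth muscle and myoepithelial gene (r = 0.991), Pigk (0.987) and Cxcl14 (0.983). For Pgr they were Mtmr6 (0.992), Dkk3 (0.991) and Gna15 (0.991), and for Wnt4 on 10509273 Ptpn3 (0.975), Mfsd3 (0.965) and Olfr585 (0.953). None of these 9 genes was called between the groups. With 21640 probe sets naming 1 gene, the highest r that a probe set had with any other was 0.988 at the median, so that values of this size are common on these arrays.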
